A study of Mus musculus with 12 samples.

Results

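The genes of MHC class II antigen presentation in sorted brain endothelium comprised 7 of the 21638 genes in the deposited table: Cd74, H2-Aa, H2-Ab1, H2-Eb1, H2-DMa, H2-DMb1 and Ciita. They were chosen by name, with their earlier values in these libraries known, including their uneven level between the WT libraries. Their values against WT are therefore given as a description with no p-value for a single gene, and the number past a threshold is printed only beside the share of all genes. RNA came from cortical endothelial cells of adult mice, sorted for CD31 without CD41 and CD45. This gate keeps endothelium and leaves out platelets and cells of the blood lineage that carry CD45. The 12 libraries formed 4 groups of 3. WT stood for wild type. Hdac2 ECKO carried Hdac2lox/lox with Cdh5CreERT2, Ezh2 ECKO carried Ezh2lox/lox with Cdh5CreERT2, and beta-catenin GOF, meant to activate beta-catenin constitutively, carried Ctnnb1lox/lox with Cdh5CreERT2. Cdh5CreERT2 is a Cre recombinase driven from the VE-cadherin promoter in endothelium and switched on by tamoxifen. The mutants received 5 doses of tamoxifen at 75 mg/kg, and brains were taken 2 months later. Whether WT mice received tamoxifen or carried the Cre, and whether each library was 1 animal, was not stated, so p-values measure only the spread between these libraries.

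Peptides from proteins taken up by a cell are shown to CD4+ T cells by class II molecules, heterodimers of an alpha and a beta chain. The chains assemble with the invariant chain Cd74, which blocks the peptide groove and guides the complex to endosomes. There cathepsins cut Cd74 down, and the H2-DM heterodimer exchanges the remaining fragment for a peptide. Transcription of the chain, Cd74 and H2-DM genes depends on the coactivator Ciita, which binds RFX, CREB and NF-Y on conserved X and Y boxes. Dendritic cells, B cells and macrophages are the classical class II expressing cells, and interferon-gamma induces Ciita in other cells, endothelium included.

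The promoters of a classical alpha and a classical beta chain gene are shown because such promoters hold the X and Y boxes. RefSeq's promoter table (GRCm38.p6) held windows from 250 bases before to 50 after the start for 4 of the 7 genes, with 5 windows in all. The 120 bases before the start are printed 5′ to 3′ on the gene's own strand, H2-Aa at chr17:34287824-34287943 (minus) and H2-Eb1 at chr17:34305747-34305866 (plus). Capitals mark, on the printed strand only, the Y box core ATTGG and, in H2-Eb1, the X1 box core GNAACNG.
H2-Aa: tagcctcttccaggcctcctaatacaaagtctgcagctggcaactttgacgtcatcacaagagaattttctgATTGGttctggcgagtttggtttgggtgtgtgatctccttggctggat
H2-Eb1: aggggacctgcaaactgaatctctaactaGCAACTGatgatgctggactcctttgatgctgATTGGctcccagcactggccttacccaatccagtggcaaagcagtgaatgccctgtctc

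ATTGG stands 48 to 44 bases before the start in H2-Aa and 59 to 55 bases before it in H2-Eb1. H2-Eb1 also holds ATTGG on the opposite strand, read as ccaat 35 to 31 bases before the start and not in capitals. In H2-Eb1 the X1 core begins 91 bases before the start, with 25 bases between it and the Y box core. H2-DMb1 held the same arrangement, its X1 core 94 bases before the start and 26 bases between the cores. An X1 core followed on the same strand by ATTGG after 15 to 35 bases was found in 2 of the 5 class II windows and in 1.0% of the 32851 windows of the whole table. ATTGG alone, on either strand, is common: it was in 4 of the 5 class II windows and in 37.4% of all windows. The GAS element TTCNNNGAA, a palindrome of interferon-gamma responsive promoters, was in 0 of the 5 and in 8.3% of all windows. The cores searched do not overlap one another in the stretches printed. The H2-Aa window held no exact GNAACNG, and letters that vary from this core were not searched. Of the 5 windows, 2 are those of H2-DMa, and both lie inside its annotated gene, past the gene's start at 34119541. These matches describe letters only.

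The class II genes lie on 3 chromosomes (GRCm38, positions counted from 1). The chain and H2-DM genes are on chromosome 17 within the MHC: H2-DMa at 34119541 to 34139101, H2-DMb1 at 34153072 to 34160230, H2-Ab1 at 34257689 to 34269419 and H2-Eb1 at 34305867 to 34316674, all on the plus strand, and H2-Aa at 34282744 to 34287823 on the minus strand. Cd74 is on chromosome 18 at 60803848 to 60812652 and Ciita on chromosome 16 at 10480059 to 10528418, both on the plus strand. The counts cover whole annotated genes and do not separate exons or UTRs. H2-DMa overlaps Brd2 and Ciita overlaps Dexi on the opposite strand, and H2-Eb1 overlaps the antisense gene Gm20513. The kit does not mark strand, so reads in such overlaps cannot be assigned by strand. H2-DMb1 has a near-identical neighbour, H2-DMb2, so reads could be split between the pair.

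Libraries held 24781070 to 36109975 counts, and levels are given as CPM, counts per 1000000 of the library total after TMM scaling. The summed level of 12 endothelial markers was 18549 to 26070 CPM in all 12 libraries. The targeted genes did not separate from WT by label at this level: Hdac2 averaged 129 ± 30.1 CPM in WT against 96.5 ± 15.2 CPM for Hdac2 ECKO (SD, n = 3 each), with overlapping values. Hdac2 was as low in beta-catenin GOF, at 96.2 ± 10.1 CPM (SD, n = 3). Ezh2 averaged 6.75 ± 3.52 CPM in WT, and in the group labelled Ezh2 ECKO 8.92 ± 3.35 CPM (SD, n = 3 each), which goes against the label; that group is therefore called the Ezh2-labelled libraries. A gene total can include transcripts of a deleted allele, and the deletion itself was not measured here.

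Cd74 was the most abundant class II transcript in WT and was low in every mutant library. Its WT libraries stood at 11.9, 42.2 and 21.6 CPM for replicates 1, 2 and 3. Hdac2 ECKO stood at 0.227, 0.717 and 0.485 CPM, the Ezh2-labelled libraries at 2.59, 0.393 and 2.80 CPM, and beta-catenin GOF at 0.750, 0 and 2.93 CPM. The lowest WT library was above the highest of the 9 mutant libraries, while the 3 mutant groups ran into each other. By group mean the order was WT (25.2 ± 15.5 CPM), the Ezh2-labelled libraries (1.93 ± 1.33 CPM), beta-catenin GOF (1.23 ± 1.52 CPM) and Hdac2 ECKO (0.477 ± 0.245 CPM; SD, n = 3 each), and within the mutants each neighbour in that order overlapped the next. The log2 fold change against WT was −5.70 (SE 1.14) in Hdac2 ECKO, −3.70 (SE 1.02) in the Ezh2-labelled libraries and −4.36 (SE 1.05) in beta-catenin GOF. In bulk libraries, fewer cells that hold a transcript and less of it per cell cannot be told apart.

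H2-Aa, the alpha chain of the I-A molecule, was at 2.98, 14.6 and 10.2 CPM in WT. It was at 0.378, 0.0652 and 0.416 CPM in Hdac2 ECKO, at 1.68, 0 and 0 CPM in the Ezh2-labelled libraries and at 0, 0.106 and 0.581 CPM in beta-catenin GOF. All 3 WT libraries lay above all 9 mutant ones. At these depths 3 counts correspond to 0.0791 to 0.118 CPM, so several of the mutant values rest on a handful of counts, and a 0 means only that the level was not detectable at this depth. The log2 fold change was −5.00 (SE 1.53), −4.01 (SE 1.44) and −5.30 (SE 1.54) in Hdac2 ECKO, the Ezh2-labelled libraries and beta-catenin GOF. In the second of these the remaining signal came from replicate 1 alone.

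H2-Ab1 encodes the I-A beta chain, the partner of H2-Aa. It was at 3.05, 29.7 and 6.12 CPM in WT, so replicate 2 carried most of the group's mean. It was at 0.151, 0.522 and 0.139 CPM in Hdac2 ECKO, at 0.194, 2.12 and 0.503 CPM in the Ezh2-labelled libraries and at 0.750, 0 and 2.50 CPM in beta-catenin GOF. WT again lay above all 9 mutant libraries, but the gap was narrow: 3.05 CPM in WT replicate 1 against 2.50 CPM in beta-catenin GOF replicate 3. The log2 fold changes were −5.55 (SE 1.38), −3.79 (SE 1.24) and −3.58 (SE 1.23) in the same order. Without WT replicate 2 they were −4.05, −2.29 and −2.08.

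H2-Eb1, the I-E beta chain, did not share this pattern. It was at 2.57, 3.80 and 5.80 CPM in WT and at 3.72, 3.85 and 5.40 CPM in beta-catenin GOF, which overlapped. Hdac2 ECKO stood at 2.12, 2.94 and 0.832 CPM and overlapped WT. The Ezh2-labelled libraries stood close together at 2.40, 2.01 and 2.37 CPM, just under the lowest WT library. The log2 fold change was −1.04 (SE 0.53) in Hdac2 ECKO, −0.84 (SE 0.53) in the Ezh2-labelled libraries and 0.09 (SE 0.52) in beta-catenin GOF. That last sign turned without WT replicate 1 (−0.15) and without beta-catenin GOF replicate 3 (−0.10). H2-Eb1 was above 3 counts in all 12 libraries, as was H2-DMa, against 8 libraries for H2-Aa.

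**Figure D1:**
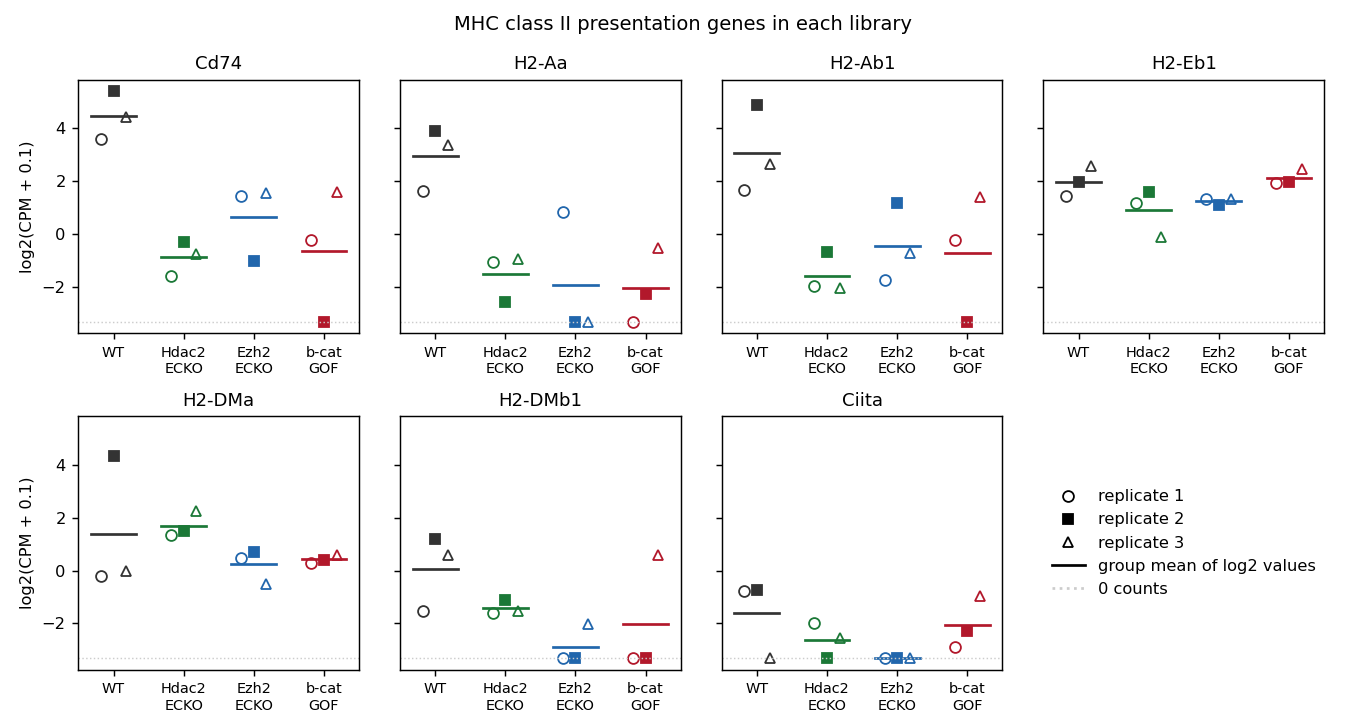
Level of each class II gene in each of the 12 libraries, as log2(CPM + 0.1), with 1 marker shape per replicate, a bar at the group mean of the log2 values and a dotted line at 0 counts. Cd74, H2-Aa and H2-Ab1 have all WT points above all mutant points, H2-Eb1 overlaps between WT and both Hdac2 ECKO and beta-catenin GOF, and H2-DMa has a single high point, WT replicate 2 at 20.2 CPM.

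H2-DMa and H2-DMb1 form the peptide exchange factor. H2-DMa was at 0.763, 20.2 and 0.890 CPM in WT. The high value was that of replicate 2, and the other WT libraries were lower than all 3 of Hdac2 ECKO, at 2.42, 2.74 and 4.71 CPM. The Ezh2-labelled libraries stood at 1.30, 1.53 and 0.610 CPM and beta-catenin GOF at 1.13, 1.21 and 1.42 CPM, all within the WT range except the 0.610 CPM. The log2 fold changes of −1.15 (SE 0.92), −2.66 (SE 0.97) and −2.54 (SE 0.96) in Hdac2 ECKO, the Ezh2-labelled libraries and beta-catenin GOF rested on that library: without it they became 1.99, 0.47 and 0.60. Brd2, the gene that H2-DMa overlaps, was at 57.9, 53.1 and 36.4 CPM in WT, and so did not peak in replicate 2. H2-DMb1 was at 0.243, 2.18 and 1.39 CPM in WT, and replicate 1 of WT was inside the range of Hdac2 ECKO at 0.227, 0.359 and 0.243 CPM. For the Ezh2-labelled group it rested on 4 counts in replicate 3, and in beta-catenin GOF replicate 3 alone held it, at 1.42 CPM. The log2 fold changes of H2-DMb1 were −2.18 (SE 1.64), −4.62 (SE 1.90) and −1.41 (SE 1.59). Its near copy H2-DMb2 was at 0.139, 1.23 and 0.0356 CPM in WT, highest in the same replicate.

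Ciita, the coactivator on which the other genes depend, was close to the detection limit. WT libraries had 14, 16 and 0 Ciita counts. Those of Hdac2 ECKO had 4, 0 and 2, the Ezh2-labelled ones 0 each, and those of beta-catenin GOF 1, 4 and 14. With a mean of 4.58 counts it was below the minimum mean of 10 for testing, and no fold is given. WT replicate 3 held no Ciita count while its Cd74 was at 21.6 CPM. Beta-catenin GOF replicate 3 and WT replicate 1 had the same Ciita count, with Cd74 at 2.93 CPM in the former and 11.9 CPM in the latter. The neighbouring Dexi was at 7.01, 4.78 and 7.33 CPM in WT.

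Per kilobase of gene length, the WT mean was 15 CPM for Cd74, 5.05 for H2-Ab1, 2.43 for H2-Aa, 2.11 for H2-DMa, 2.09 for H2-Eb1, 0.757 for H2-DMb1 and 0.0347 for Ciita. Cd74 was thus ahead of both chains of I-A on this scale. The summed level of all 7 genes was 22.0, 113 and 46.0 CPM in WT against 5.28 to 14.7 CPM over the 9 mutant libraries, where H2-Eb1 and H2-DMa made up much of the sum.

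Set beside all genes tested (those with a mean of at least 10 counts, 12577 genes), 6 class II genes entered the edgeR quasi-likelihood fit, and Ciita did not. The median log2 fold change of the 6 was −3.59 in Hdac2 ECKO, −3.75 in the Ezh2-labelled libraries and −3.06 in beta-catenin GOF, against medians over all genes of 0.10, 0.05 and 0.01. In Hdac2 ECKO 2 of the 6 had a Benjamini-Hochberg adjusted p under 0.05, where 9.20% of all genes did (5.38% lower than WT). In the Ezh2-labelled libraries 0 of the 6 did, against 1.03% of all genes (0.684% lower than WT), and in beta-catenin GOF 0 of the 6, against 0% of all genes. At an unadjusted edgeR p under 0.05 the numbers were 3, 5 and 4, where 4161, 3111 and 763 of all 12577 genes were. DESeq2 called 3 in Hdac2 ECKO, 1 in the Ezh2-labelled libraries and 0 in beta-catenin GOF, where it called 2553, 1280 and 38 of all genes. Values of all 3 mutant libraries lay below all 3 WT ones for 3 genes in Hdac2 ECKO (Cd74, H2-Aa, H2-Ab1), where 18.2% of all genes did so. For the Ezh2-labelled libraries they did for 5 genes (the same 3, H2-Eb1 and H2-DMb1), against 10.9% of all genes, and for beta-catenin GOF for 3 genes (Cd74, H2-Aa, H2-Ab1), against 5.87%. H2-DMb1 averaged 8.56 counts over the mutant libraries and passed the filter of 10 only through WT, where it was highest. Its part in the medians and in these counts follows in part from the filter. The genes were chosen on these contrasts, which share the 3 WT libraries, so these counts test nothing about the genes and nothing is read from them. The 2 calls in Hdac2 ECKO were not made without WT replicate 1, WT replicate 2, Hdac2 ECKO replicate 1 or Hdac2 ECKO replicate 3. Of all genes 0, 0, 3 and 0 were called there, in that order.

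**Figure D2:**
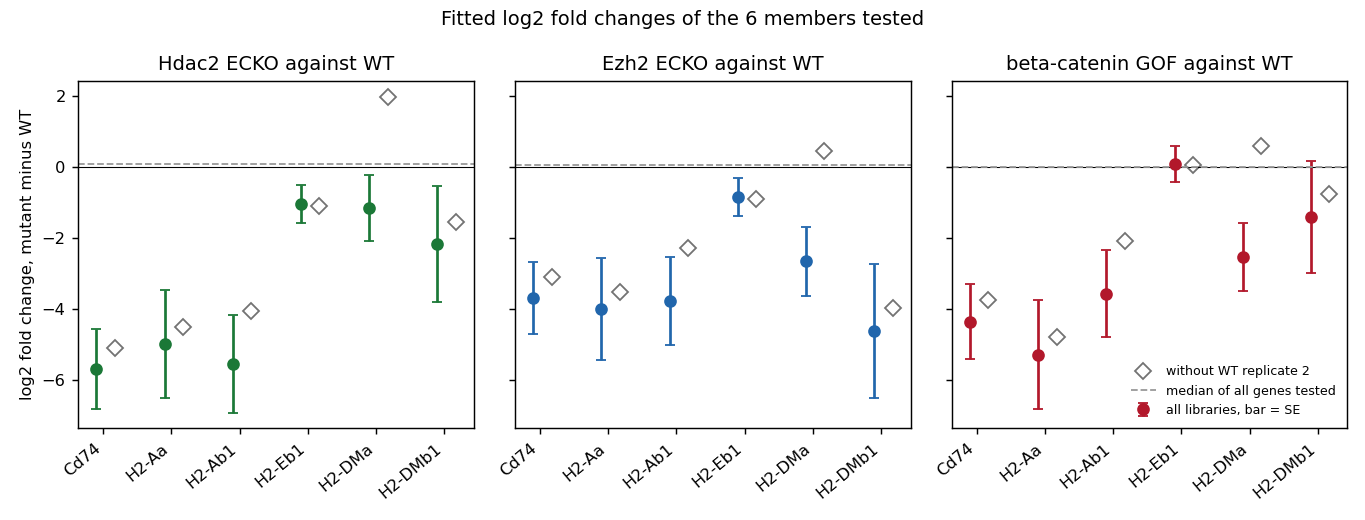
Log2 fold change of the 6 class II genes that were tested in each mutant group against WT, with bars for the SE; open points leave out WT replicate 2, and the dashed line is the median of all genes tested. Cd74, H2-Aa and H2-Ab1 stay below 0 in each panel with and without that library, and H2-DMa crosses 0 without it (1.99, 0.47 and 0.60).

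The 3 mutant groups were compared with each other, with no WT library in the contrast. The genes were chosen with the levels of all 4 groups known, and the fit and its filter on low counts include WT. H2-DMb1 averaged 8.56 counts over the mutant libraries and entered the fit only through WT, so its values are given without a test. None of the other 5 genes passed the threshold in any of the 3 comparisons by edgeR or by DESeq2, where edgeR called 0.0239% of all genes between Hdac2 ECKO and the Ezh2-labelled libraries, 0.0716% between beta-catenin GOF and Hdac2 ECKO, and 0.0636% between beta-catenin GOF and the Ezh2-labelled libraries. DESeq2 called 98, 621 and 144 of all 12577 genes in the same order. At an unadjusted edgeR p under 0.05 the numbers were 0, 1 (H2-Eb1) and 0 of 5, where 1030, 2658 and 1655 of all genes were. Cd74 was lower in Hdac2 ECKO than in the Ezh2-labelled libraries by a log2 fold change of −2.0 (SE 1.02), with an edgeR adjusted p of 0.63 and overlapping values. Without a filter on low counts, which tested 20343 genes, this difference passed (−2.01, edgeR adjusted p 0.014), and 199 of all genes did so. H2-DMa stood above the Ezh2-labelled libraries in all 3 Hdac2 ECKO libraries (1.52 on the log2 scale, SE 0.94, edgeR adjusted p 0.68), where 7.77% of all genes were higher without overlap. H2-DMb1 did so too, at 0.227 to 0.359 CPM against at most 0.144 CPM. H2-Eb1 was higher without overlap in beta-catenin GOF than in Hdac2 ECKO (1.14, SE 0.53, edgeR adjusted p 0.24), where 16.1% of all genes were. It was also higher without overlap than in the Ezh2-labelled libraries (0.94, SE 0.53, edgeR adjusted p 0.45), where 7.99% of all genes were. H2-DMa was lower in beta-catenin GOF than in Hdac2 ECKO in every library (−1.39, SE 0.93, edgeR adjusted p 0.39), where 15.8% of all genes were lower without overlap. For the I-A chains the values overlapped in all 3 comparisons, H2-Ab1 at −1.75 (SE 1.25), 1.97 (SE 1.25) and 0.21 (SE 1.16) and H2-Aa at −0.99 (SE 1.39), −0.30 (SE 1.43) and −1.29 (SE 1.39). Single libraries set these signs: without Ezh2-labelled replicate 1, H2-Aa became 6.09 in the first comparison and 5.83 in the third. In the second it became 0.11, 0.26 or 0.05 without Hdac2 ECKO replicate 3, beta-catenin GOF replicate 1 or beta-catenin GOF replicate 2. H2-Ab1 in the third became −0.26, −0.07 or −1.35 without Ezh2-labelled replicate 1, Ezh2-labelled replicate 3 or beta-catenin GOF replicate 3. SEs of 0.53 to 1.43 leave room for differences of several fold in either direction between the mutants, and missing the threshold does not show that the groups are alike.

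Of the other genes of the pathway, a list of cathepsins, RFX and NF-Y subunits, costimulators and interferon-gamma signalling components, 34 were in the table and 29 were tested. Against WT, 1 was higher and 5 were lower in Hdac2 ECKO by edgeR, 0 were higher and 2 lower in the Ezh2-labelled libraries, and none passed in beta-catenin GOF. The shares of all genes called were 9.20%, 1.03% and 0%, and the shares lower 5.38%, 0.684% and 0%. In beta-catenin GOF 5 were at an unadjusted edgeR p under 0.05 and DESeq2 called 2, where 763 and 38 of all 12577 genes were. Median log2 fold changes of the list were −0.61, −0.46 and −0.29, nearer to 0 than those of the class II genes. The 5 that fell in Hdac2 ECKO were Socs1, the feedback inhibitor of JAK kinases (−3.29, SE 0.56, edgeR adjusted p 0.032), Irf1, a transcription factor that acts on the Ciita promoter (−1.85, SE 0.39, adjusted p 0.032), the costimulatory receptor Cd40 (−1.38, SE 0.29, adjusted p 0.032), the cathepsin Ctsb (−1.29, SE 0.30, adjusted p 0.034) and Ifngr1, the ligand-binding chain of the interferon-gamma receptor (−1.28, SE 0.35, adjusted p 0.040). Creb1, one of the factors on the X box, rose (0.97, SE 0.26, edgeR adjusted p 0.040). In the Ezh2-labelled libraries, Irf1 (−2.23, SE 0.40, edgeR adjusted p 0.043) and Socs1 (−2.82, SE 0.55, adjusted p 0.045) fell. In beta-catenin GOF the smallest p-values were again those of Socs1 (−2.53, SE 0.54, edgeR adjusted p 0.35) and Irf1 (−1.59, SE 0.39, adjusted p 0.40).

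Socs1 was at 15.5, 16.8 and 6.91 CPM in WT and at most 3.23 CPM in any mutant library. Ifngr1 was at 122, 82.4 and 77.9 CPM in WT, at 26.5, 46.6 and 42.9 CPM in Hdac2 ECKO, at 25.7, 70.2 and 36.0 CPM in the Ezh2-labelled libraries, and at 62.8, 80.5 and 70.1 CPM in beta-catenin GOF, where it overlapped WT. Cd40 was at 52.6, 60.2 and 44.5 CPM in WT and at 15.1, 27.5 and 17.9 CPM in Hdac2 ECKO. For these 3 genes all WT libraries were above all Hdac2 ECKO libraries, but the calls in the list depended on single libraries. Without WT replicate 1 or WT replicate 2, and without Hdac2 ECKO replicate 1 or 3, 0 of the 29 passed in Hdac2 ECKO by edgeR. Of all 12577 genes 0, 0, 3 and 0 passed, in that order. Without Hdac2 ECKO replicate 2, 11 of the 29 and 2216 of all genes passed. At an unadjusted edgeR p under 0.05 without WT replicate 2 there were 15 of the 29 and 3194 of all genes. For the Ezh2-labelled group 0 of the 29 passed without WT replicate 1, WT replicate 2 or replicates 1 or 3 of that group, and 9 without its replicate 2. Over all genes 2, 2, 4 and 7 passed in that order, and 2329 without its replicate 2.

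Genes known to be induced by interferon-gamma formed a second list: 27 were in the table and 25 were tested, of which 4, Irf1 and Socs1 among them, are also in the pathway list. By edgeR 9 were lower and 0 higher in Hdac2 ECKO, where 5.38% of all genes were lower. In the Ezh2-labelled libraries 4 were lower and 0 higher, where 0.684% of all genes were lower. In beta-catenin GOF 0 passed, where 0% of all genes did. There 20 were at an unadjusted edgeR p under 0.05 and DESeq2 called 4, where 763 and 38 of all 12577 genes were. Median log2 fold changes of the list were −1.85, −2.24 and −2.12. Beside Socs1 and Irf1, those with the smallest p in Hdac2 ECKO were Igtp, an interferon-inducible GTPase (−3.58, SE 0.89, edgeR adjusted p 0.036), and Psmb10, an immunoproteasome subunit (−1.61, SE 0.43, adjusted p 0.039). For the Ezh2-labelled group they were the serpin Serpina3g (−6.03, SE 1.35, edgeR adjusted p 0.048) and Igtp (−4.06, SE 0.91, adjusted p 0.048). In beta-catenin GOF, Tgtp1 was at −3.72 (SE 0.87, edgeR adjusted p 0.40). Without WT replicate 2, 0 of the 25 passed by edgeR in any of the 3 comparisons (5, 9 and 6 at an unadjusted p under 0.05). Of all 12577 genes only 0, 2 and 0 passed there (3194, 2141 and 537 at an unadjusted p under 0.05), so the loss of calls was not particular to the list. The medians of the list moved to −0.23, −0.58 and −0.42, against 0.10, 0.06 and 0.02 over all genes.

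WT replicate 2 stood apart from the other WT libraries for these genes. It was at least 2-fold above the mean of WT replicates 1 and 3 for 23 of the 25 interferon-gamma-inducible genes (median ratio 7.45), for 5 of the 6 class II genes (median 2.60), for 5 of the 29 pathway genes (median 1.08) and for 749 of all 12577 genes, or 6.0% (median 0.967). Igtp was at 70.0, 1865 and 92.5 CPM in WT, and the highest mutant library was at 76.4 CPM. Gbp4, a guanylate-binding protein, was at 114, 1501 and 115 CPM in WT and between 38.8 and 189 CPM in the mutants, so WT replicates 1 and 3 lay inside the mutant range. Among the class II genes the ratio was 24.4 for H2-DMa, 6.47 for H2-Ab1, 2.68 for H2-DMb1, 2.52 for Cd74, 2.21 for H2-Aa and 0.908 for H2-Eb1. For Cd74, H2-Aa and H2-Ab1, WT replicates 1 and 3 were each above all 9 mutant libraries as well. Of the 27 inducible genes, WT replicate 2 was above all 9 for 27, WT replicate 1 for 5 and WT replicate 3 for 7, with Socs1 among both. Leaving out WT replicate 2, the median of the 6 class II genes was −2.80, −2.70 and −1.43 in Hdac2 ECKO, the Ezh2-labelled libraries and beta-catenin GOF. EdgeR called 0 of them in each (4, 1 and 2 at an unadjusted p under 0.05). Of all 12577 genes it called 0, 2 and 0 (3194, 2141 and 537 at an unadjusted p under 0.05).

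**Figure D3:**
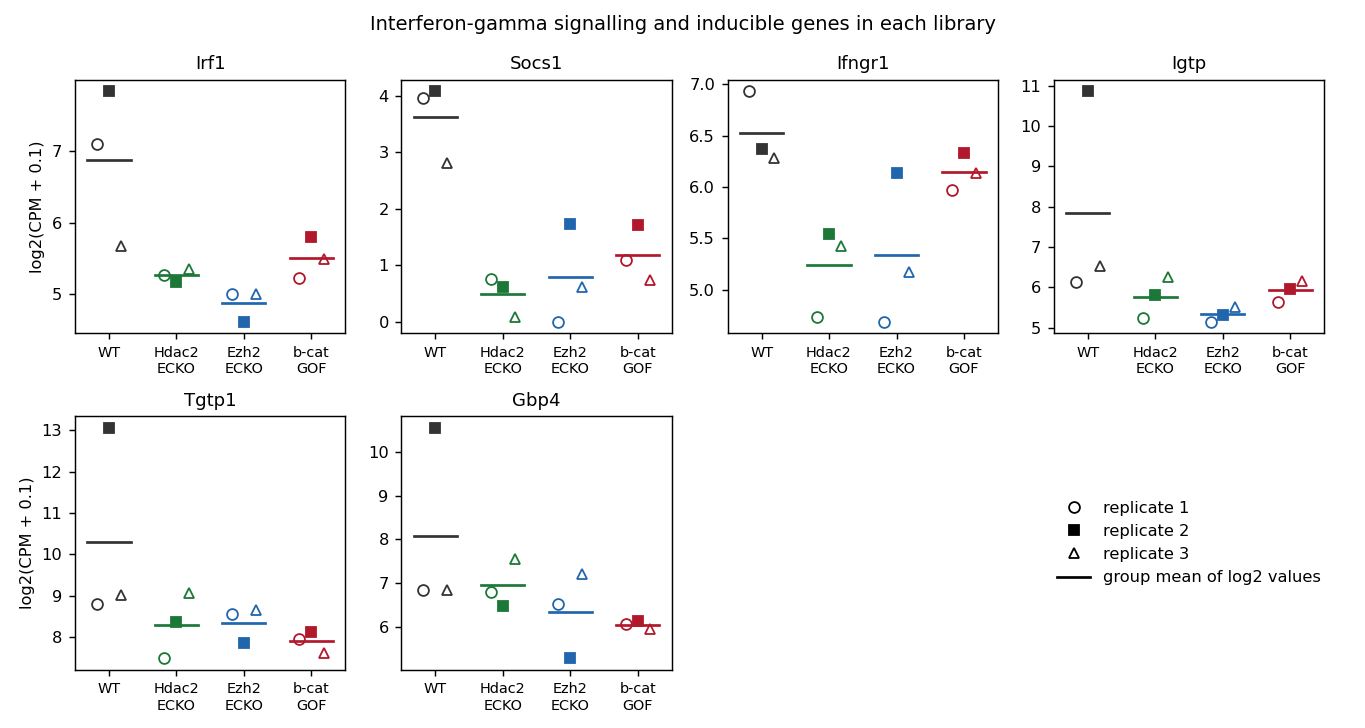
Level of the interferon-gamma signalling genes Irf1, Socs1 and Ifngr1 and of the inducible GTPases Igtp, Tgtp1 and Gbp4 in each library, as log2(CPM + 0.1), with 1 marker shape per replicate and a bar at the group mean of the log2 values; each panel has its own scale. WT replicate 2 (filled square) is the highest of all 12 libraries in every panel except that of Ifngr1, where WT replicate 1 is highest.

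Across the 12 libraries, log2 CPM of Cd74 correlated with that of H2-Aa at r = 0.90, H2-Ab1 at 0.86, H2-DMb1 at 0.74, Ciita at 0.50, H2-Eb1 at 0.44 and H2-DMa at 0.26. Without WT replicate 2 (11 libraries) these were 0.85, 0.77, 0.59, 0.26, 0.42 and −0.56. All points share the libraries and their depth, the WT group sets much of each value, and the coefficients are given as a description. The genes outside the list whose log2 CPM followed the mean log2 CPM of the class II genes most closely, by Pearson's r over the 12 libraries, were H2-T22 (0.93), a class I-like gene, Apol9a (0.91), Apol10b (0.90), Ifit3 (0.88), an interferon-induced gene, and Ltf (0.88), which encodes lactoferrin. Without the 2 libraries farthest from the median, WT replicates 2 and 3, their r over 10 libraries was 0.74, 0.83, 0.61, 0.61 and 0.81. H2-T22 was at 64.9, 115 and 61.6 CPM in WT and between 33.7 and 48.8 CPM in the mutants.

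Classical class II expressing cells would bring their own markers, and these were low in a CD45-negative sort but not equal between groups. Of 8 pan-leukocyte genes, 5 to 8 were above 3 counts in a WT library, 4 or 5 in Hdac2 ECKO, 2 to 6 in the Ezh2-labelled libraries and 3 or 4 in beta-catenin GOF. Their summed level was 18.0 to 21.1 CPM in WT, 14.7 to 16.0 CPM in Hdac2 ECKO, 5.09 to 11.3 CPM in the Ezh2-labelled libraries and 9.41 to 13.2 CPM in beta-catenin GOF, and Lcp1 made up the largest share. Of the 6 that were tested, 5 had a negative and 1 a positive log2 fold change against WT in each mutant group. Cd53, a leukocyte tetraspanin, was at 2.08, 2.41 and 2.85 CPM in WT and at 0 counts in all 9 mutant libraries. Lcp1 went the other way in Hdac2 ECKO, at 13.5, 12.0 and 12.5 CPM against 9.78, 8.86 and 10.0 CPM in WT. The sum in Hdac2 ECKO is therefore mostly Lcp1 and hides a wider gap to WT in the other genes together. Coro1a averaged 0.223 CPM in WT, 0.428 CPM in the Ezh2-labelled libraries and 0.625 CPM in beta-catenin GOF. Ptprc, which encodes the sorted-out antigen CD45, was at 0.486, 1.52 and 0.0712 CPM in WT and at 0 to 1.29 CPM in the mutants. Cd53 and Ptprc passed the filter of 10 counts only through WT, so their negative signs follow in part from the filter. Spi1, the macrophage and B cell factor, was at 0 in all Ezh2-labelled libraries and in all of beta-catenin GOF. It had only 2, 6 and 0 counts in WT and 4, 0 and 0 in Hdac2 ECKO, so these zeros say little.

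For 17 microglia and macrophage markers the sum was 15.8 to 24.8 CPM in WT, 7.59 to 18.3 CPM in Hdac2 ECKO, 6.84 to 52.4 CPM in the Ezh2-labelled libraries and 4.16 to 9.70 CPM in beta-catenin GOF. Above 3 counts were 11 to 14 of them in WT, 5 to 13, 5 to 12 and 4 to 6 in the same order, and in beta-catenin GOF 8 of the 17 were at 0 in all 3 libraries, among them Aif1, C1qb, Cx3cr1 and Trem2. Of the 10 that were tested, 8, 5 and 9 had a negative log2 fold change in Hdac2 ECKO, the Ezh2-labelled libraries and beta-catenin GOF, and 2, 5 and 1 a positive one. Among them, C1qc passed the filter on low counts only through WT, so its negative signs follow in part from the filter. Csf1r, the macrophage growth factor receptor, was at 1.60, 2.75 and 0.997 CPM in WT and higher in the Ezh2-labelled libraries, at 3.63, 6.53 and 8.26 CPM. Ctss, the cathepsin that cuts Cd74 in such cells, was at 3.61, 1.58 and 1.92 CPM in WT, at 0, 0.587 and 0 CPM in Hdac2 ECKO and at 0.0648, 10.1 and 0.144 CPM in the Ezh2-labelled libraries. The complement gene C1qb was at 3.40, 1.14 and 0.854 CPM in WT, highest in replicate 1, in which Cd74 was the lowest of the WT libraries. B cell markers summed to 1.84 to 5.48 CPM in WT, 0.277 to 3.33 CPM in Hdac2 ECKO, 0.130 to 2.15 CPM in the Ezh2-labelled libraries and 0.842 to 2.11 CPM in beta-catenin GOF, with 2 or 3, 2 or 3, 1 or 2 and 1 or 2 of 7 above 3 counts. Of 8 dendritic cell markers 2 to 4 were above 3 counts in WT, and their sum was 32.4 to 44.3 CPM in WT and 39.4 to 80.0 CPM over the mutants. Zbtb46 made up nearly all of it, at 30.8, 41.3 and 43.4 CPM in WT. The other 7 summed to 0.925 to 2.06 CPM in WT, 1.04 to 3.33 CPM in Hdac2 ECKO, 1.04 to 3.79 CPM in the Ezh2-labelled libraries and 1.29 to 4.21 CPM in beta-catenin GOF. Itgax was at 0, 0.696 and 0 CPM in WT and at most 0.0757 CPM in the mutants, and Flt3, Batf3 and Cd209a were at 0 in all WT libraries. T and NK cell markers summed to at most 1.75 CPM in any library, with Cd4 at 0 in all 12. The part of these cells in the class II levels was not tested.

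**Figure D4:**
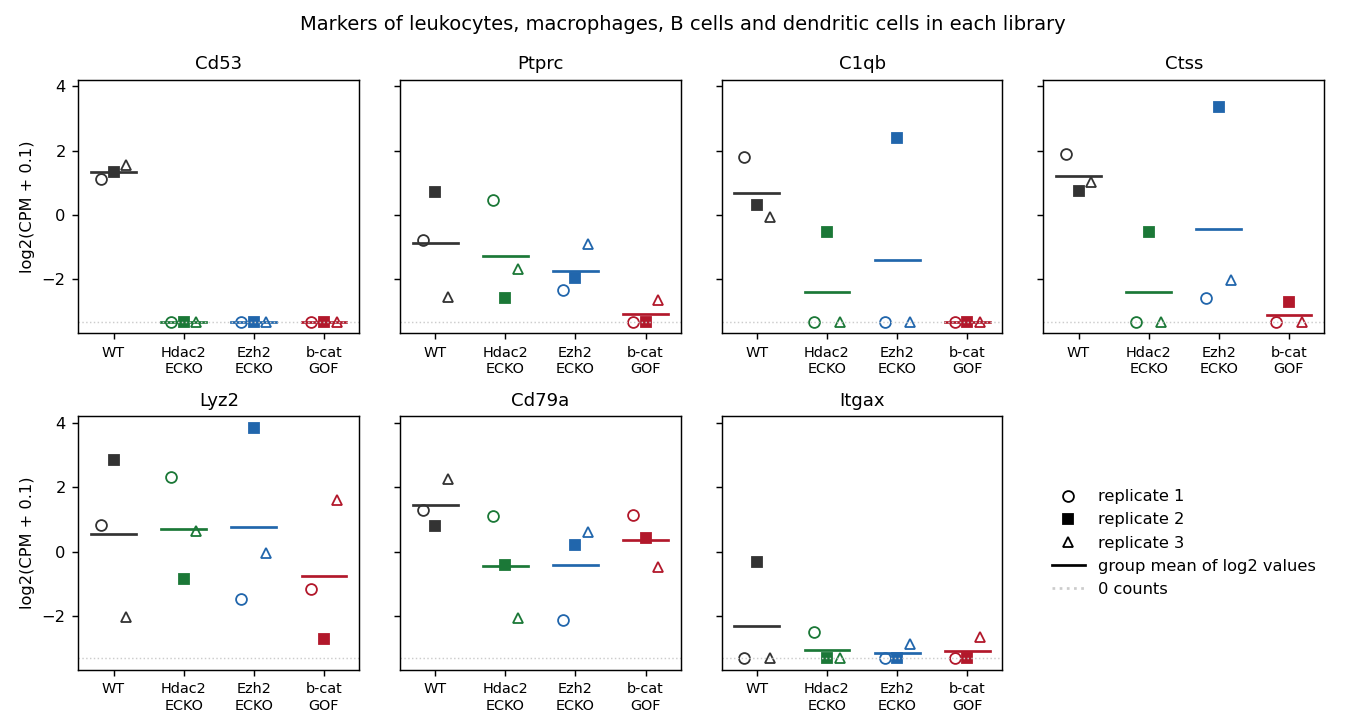
Level of the leukocyte genes Cd53 and Ptprc, the myeloid genes C1qb, Ctss and Lyz2, the B cell gene Cd79a and the dendritic cell gene Itgax in each library, as log2(CPM + 0.1), drawn as in the plot of class II genes. Cd53 is above 2 CPM in all 3 WT libraries and at 0 in all 9 mutant ones, and the myeloid genes have their highest point in replicate 2 of the Ezh2-labelled libraries.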

How the data were processed

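The authors deposited 1 table with a value per gene for each of the 12 libraries (SMART-Seq v4 PLUS, read pairs, NovaSeq X Plus, per the labels' protocols). The submitters' processing notes name FastQC, cutadapt, STAR, featureCounts, DESeq2 and build mm10, without versions or settings. The deposited table is titled normalized, but its values are whole numbers with unequal totals, and 79.5 to 84.0% of values from 10 to 50 were even, against 59.4 to 67.1% from 300 to 1000. An excess of even values is what counting both mates gives, so the deposited values were treated as raw counts. Gene length in bases was taken from the deposited table, per the file headers. Gene positions matched GENCODE M21 for 99.1% of rows.

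Genes averaging 10 or more counts were fitted with edgeR 4.0.16 (R 4.3.3): quasi-likelihood F test, TMM scaling, 1 model over the 4 groups, 6 contrasts, Benjamini-Hochberg over all genes tested, threshold 0.05. SEs of log2 fold changes follow from the F statistics. Libraries within a group differed far beyond sampling noise (chi-square per degree of freedom at least 65). Reads carry no molecular identifiers, so the floor of 3 counts covers counting error only. The class II genes, lists and comparisons were chosen with earlier results of these data known. Genes named are the 7 class II genes, up to 6 pathway and 4 interferon-inducible genes per contrast past the threshold in order of p (else the 2 with the smallest p) and the 5 genes most like the class II genes; the pathway genes shown by library, the marker genes, Brd2, Dexi, H2-DMb2 and Gbp4 were named after their values were seen. Some genes of the lists are not reported here by name or level, and 1 was left out of the microglia and macrophage sum. Likeness used log2(CPM + 0.5).

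Alternatives were DESeq2 1.42.0, median-ratio size factors, library size alone, no filter, a minimum mean of 50 counts, only the 2 groups compared, removal of a trend with gene length, a replicate block, and leaving out each library. Leaving out WT replicate 2 for the interferon-inducible list was added after seeing the data. Same-numbered libraries deviated together in every pair (r over 0.1) only between Hdac2 ECKO and the Ezh2-labelled libraries (0.16, 0.38 and 0.11, across genes). The code was tested on simulated data.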

Additional observations from a re-analysis of the deposited data

How the results depend on the processing

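The number of the 6 class II genes called against WT moved with the setting. In the Ezh2-labelled libraries it was 0, and 1 by DESeq2, 4 without a filter and 0 to 2 on leaving out 1 library; in beta-catenin GOF it was 0, and 4 without a filter. In Hdac2 ECKO it was 2, and 3 by DESeq2 and 0 to 2 on leaving out 1 library. Between Hdac2 ECKO and the Ezh2-labelled libraries it was 0, and 1 without a filter. Of the 29 pathway genes, 6 were called in Hdac2 ECKO, and 11 by DESeq2, 11 without a filter and 0 to 11 on leaving out 1 library. Among the Ezh2-labelled libraries 2 were called, and 6 by DESeq2, 6 without a filter, 0 with only the 2 groups compared and 0 to 9 on leaving out 1 library. In beta-catenin GOF 0 were called, and 2 by DESeq2, 5 without a filter and 0 to 1 on leaving out 1 library. The cause was not tested.

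With the replicate block, 10 pathway genes and 3 class II genes were called in Hdac2 ECKO against WT, of 1832 genes in all against 1157 without the block, and 536 against 129 in the Ezh2-labelled libraries. WT and mutant numbers were not shown to pair. Between Hdac2 ECKO and the Ezh2-labelled libraries the block changed no call of a class II gene.

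Over all genes, Hdac2 ECKO had 2553 calls by DESeq2, 2279 without a filter, 1826 with library size alone, 596 with the length trend removed and 0 to 2216 on leaving out 1 library. The Ezh2-labelled libraries had 1280 by DESeq2, 1367 without a filter, 219 at a mean count of at least 50, 76 with median-ratio size factors, 30 with library size alone, 17 with only the 2 groups compared and 2 to 2329 on leaving out 1 library. Beta-catenin GOF had 38 by DESeq2, 157 without a filter and 0 to 4 on leaving out 1 library. Library size alone moved the median over all genes in Hdac2 ECKO from 0.10 to 0.34 and the share of its calls that were lower from 58.5% to 19.6%; in the Ezh2-labelled libraries that share moved from 66.7% to 43.3%. Cd74, H2-Aa and H2-Ab1 kept a negative log2 fold change against WT under every setting run, from −6.17 to −3.11 for Cd74. Depth limits Ciita and H2-DMb1 most, which rest on few counts in most libraries, and a library left out of a group with several zeros moved H2-Aa by up to several log2 units (−11.13 in the Ezh2-labelled libraries without replicate 1).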

Other observations

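Replicate 2 of the Ezh2-labelled libraries had the highest Ctss (10.1 CPM), Lyz2 (14.3 CPM) and C1qb (5.19 CPM) of the 12 libraries, and its Cd74 rested on 10 counts (0.393 CPM), the lowest of its group. Its H2-Eb1 (2.01 CPM) was also the lowest of the group, and its H2-Aa and H2-DMb1 were at 0. However, its H2-Ab1 (2.12 CPM) and H2-DMa (1.53 CPM) were the highest of the group. The part of myeloid cells in these levels was not tested. WT replicate 3, with Cd74 at 21.6 CPM, had the lowest Lyz2 (0.142 CPM) and Ptprc (0.0712 CPM) of the WT libraries. Other leukocyte and myeloid genes were highest of the WT libraries in it: Cd52 (4.91 CPM), Tyrobp (3.56 CPM), Cd68 (3.38 CPM) and Cd53 (2.85 CPM). The markers thus went both ways in that library, and their part in its Cd74 level was not tested. In beta-catenin GOF, replicate 3 was the highest of its group for all 7 class II genes, with Cd74 at 2.93 CPM, and also for Lyz2 (2.96 CPM) and the microglial gene Fcer1g (2.73 CPM), while C1qb was at 0 in all 3 of its libraries.

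The summed level of pericyte and smooth muscle markers was 66.9 to 123 CPM in WT, 129 to 314 CPM in Hdac2 ECKO, 56.6 to 72.8 CPM in the Ezh2-labelled libraries and 121 to 378 CPM in beta-catenin GOF. Astrocyte markers summed to 24.0 to 35 CPM in WT and 36.4 to 77.6 CPM over the mutants. Gja1 made up most of this sum, at 31.7, 19.4 and 26.5 CPM in WT and 33.6 to 67.5 CPM over the mutants. Gfap went the other way, with means of 0.852 CPM in WT, 0.174 CPM in Hdac2 ECKO, 0.191 CPM in the Ezh2-labelled libraries and 0.671 CPM in beta-catenin GOF.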
